A study of Mus musculus with 6 samples.

Results

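The 35 genes described here make cholesterol, sense it, take it up, move it within the cell and export it. They were taken by name from the gene symbols of the array's probe annotation, and a probe set counted only where 1 of these symbols stood alone. Of the 35, 34 had such probe sets, out of 22071 genes named in the annotation, and all 34 entered the test. The 35th, Acat2, has no value here.

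The data are 6 Affymetrix exon arrays of total RNA from primary cortical neuron cultures of C57Bl/6 mouse embryos at embryonic day 15. In both groups the cells were grown with BDNF and CNTF, treated on day 2 with AraC, which kills dividing cells, and exposed on day 5 for 4 hours to lentivirus. The virus carried a control short hairpin RNA (shRNA) in 3 samples and an shRNA against Cugbp1, now called Celf1, in the other 3, and RNA was collected on day 11. For replicates 2 and 3, control and knockdown alike, the treatment description gives Tdp-43 as the gene targeted, and the series' design text speaks of motor neurons. Nothing in the labels says whether arrays of a group came from separate animals or cultures, so p-values measure only the spread between these samples. These are bulk samples, in which fewer cells of a type and less RNA per cell cannot be told apart.

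Values are log2 RMA values summarised per gene. The array medians lay between 5.74 and 5.78. Celf1 was lower in the Cugbp1 shRNA arrays, at 9.59, 9.39 and 9.32 against 10.85, 10.80 and 10.76 in controls (log2 change -1.37, limma adjusted p = 0.0117). Tardbp, which encodes TDP-43, was at -0.03 (adjusted p = 0.961). Of 9 neuron, 8 astrocyte, 9 oligodendrocyte lineage, 8 microglia and 5 fibroblast and meninges markers tested, 0 passed without the replicate block described below. The mean neuron marker value was 12.04 to 12.20 in control and 11.96 to 12.04 in Cugbp1 shRNA arrays, with every knockdown array slightly below every control array. The astrocyte list ran from 9.87 to 9.90 and from 9.68 to 9.95, the oligodendrocyte lineage list from 9.20 to 9.62 and from 9.22 to 9.51. The microglia list ran from 6.59 to 6.91 and from 6.52 to 6.87, the fibroblast and meninges list from 8.61 to 9.07 and from 8.63 to 9.03. The endothelial and mural list ran from 7.20 to 7.55 and from 7.18 to 7.44, and 1 of its 6 genes, Pdgfrb, fell. With the replicate block 1 neuron, 1 astrocyte and 1 microglia marker fell as well. The part of these other cell types in the results was not tested.

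Cholesterol is built in 2 stretches: the mevalonate arm turns acetyl units into farnesyl diphosphate, and the sterol arm joins that into squalene, closes it to lanosterol and trims it to cholesterol. SREBP transcription factors, held back by INSIG proteins and escorted by SCAP, switch on most of these enzymes when membrane sterol is low. LXR receptors, which bind oxidised sterols and desmosterol, switch on the exporters Abca1 and Abcg1 and the LDL receptor degrader Mylip when sterol is high. The brain makes its own cholesterol behind the blood-brain barrier, with astrocytes and oligodendrocytes as large producers.

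After the Cugbp1 shRNA 2 genes of the late sterol arm fell. These were Dhcr7, the enzyme of the last reduction to cholesterol, and Nsdhl, a sterol dehydrogenase of the demethylation steps. No member rose in limma without further terms. Of the 34 members, 2 fell at an adjusted p under 0.05 over 16524 genes, a share of 5.88% where 2.86% of all genes were called lower. None of the 34 was called higher, where 1.11% of all genes were. A lower mean was seen in 22 of the 34, or 64.7%, against 53.5% of all genes. At an unadjusted p under 0.05, 9 members were lower and 3 higher, where 11.2% and 7.44% of all genes were.

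Same-numbered arrays of the groups deviated together, so a second limma fit took that number as a term (the replicate block). By that fit 11 members fell, 32.4% against 13.9% of all genes, and 3 rose, 8.82% against 9.33% of all genes. Of the 11, 8 were among the 11 sterol arm genes. The other 3 were Pmvk, Stard4 and Cyp46a1, and those that rose were Idi1, Abca1 and Abcg1. In 12 members the groups did not overlap and Cugbp1 shRNA was lower (35.3%, against 14.4% of all genes). In 3 they did not overlap and it was higher (8.82%, against 10.8% of all genes).

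**Figure D1:**
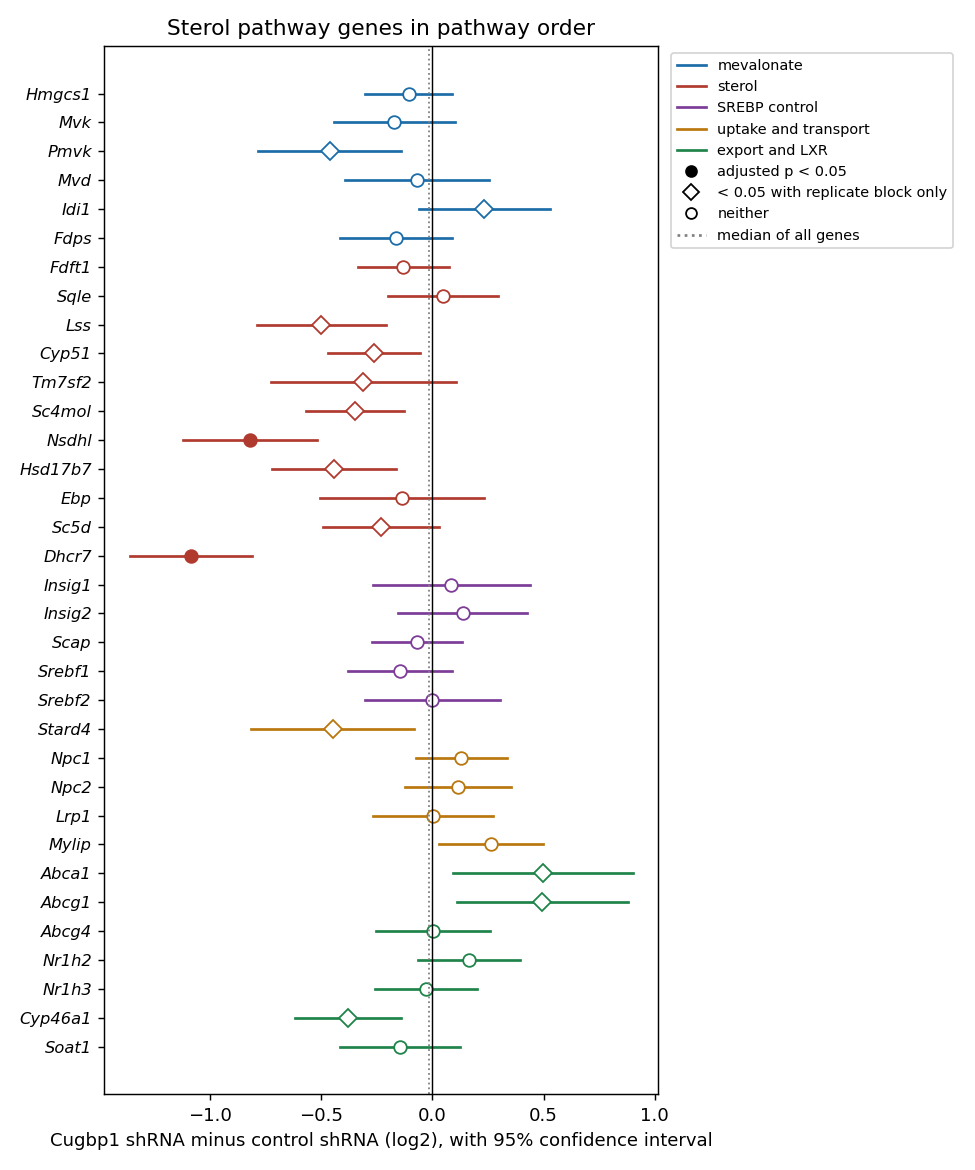
Log2 difference, Cugbp1 shRNA minus control shRNA, for the 34 measured genes in pathway order, with the 95% confidence interval of the limma fit over 3 arrays per group. Filled circles passed at an adjusted p under 0.05, diamonds passed with the replicate block only, and the dotted line is the median of all genes. Dhcr7 at -1.09 and Nsdhl at -0.82 lie farthest to the left, and Abca1 and Abcg1 at 0.50 and 0.49 farthest to the right.

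The mevalonate arm had small differences apart from Pmvk, at -0.46. Of its 7 genes 6 were measured, 5 had a lower mean and 0 passed in limma (1, Pmvk, at an unadjusted p under 0.05). The median difference was -0.14, against -0.02 for all genes. Hmgcs1, which makes HMG-CoA and is a standard SREBP target, was at 12.91, 12.90 and 12.95 in control and 12.85, 12.75 and 12.84 in Cugbp1 shRNA arrays. The groups were separate, yet the difference was only -0.11 with a 95% confidence interval of -0.30 to 0.09 (adjusted p = 0.597). The smallest spread between control arrays in this arm, an SD of 0.03 (n = 3), was that of Hmgcs1.

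Pmvk, phosphomevalonate kinase, was at 9.09, 8.76 and 9.17 in control and 8.71, 8.42 and 8.51 in Cugbp1 shRNA arrays. Every knockdown array was below every control array. The difference was -0.46 (standard error 0.14), which is 72.6% of control, with an adjusted p of 0.120 in limma and of 0.0118 with the replicate block. Mvk, mevalonate kinase, was at -0.17, Mvd, mevalonate diphosphate decarboxylase, at -0.07, and Fdps, farnesyl diphosphate synthase, at -0.16, and none of them passed in either fit. Mvd was higher in replicate 1, by 0.12, and lower in replicates 2 and 3.

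Idi1, the isomerase that makes the allylic building block, ran the other way. It was at 10.58, 10.26 and 10.45 in control and 10.83, 10.51 and 10.64 in Cugbp1 shRNA arrays, so the groups overlapped. Within replicate numbers the difference was nearly the same, 0.25, 0.25 and 0.19. It rose by 0.23 with the replicate block (adjusted p = 0.0331) and did not pass without it (adjusted p = 0.395). Leaving out control replicate 2 brought the difference to 0.10, and leaving out Cugbp1 shRNA replicate 1 to 0.13.

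The sterol arm had a lower median difference than the mevalonate arm, although the arms were not tested against each other. All 11 genes were measured, and 10 had a lower mean. Their median difference was -0.31, 2 fell in limma, and 8 fell with the replicate block, 72.7% where that fit called 13.9% of all genes lower. In 7 of the 11 the groups did not overlap and Cugbp1 shRNA was lower, 63.6% against 14.4% of all genes.

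The first enzymes of this arm were close to control. Fdft1, squalene synthase, was at 12.37, 12.25 and 12.26 in control and 12.23, 12.14 and 12.13 in Cugbp1 shRNA arrays. Its difference of -0.13 did not pass (adjusted p = 0.519, and 0.149 with the block). Sqle, squalene monooxygenase and a rate-limiting step, was at 0.05 with a confidence interval of -0.20 to 0.30 (adjusted p = 0.902).

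From ring closure on, values were lower at most steps. Lss, which folds squalene epoxide into lanosterol, was at 11.18, 11.26 and 11.49 in control and 10.97, 10.65 and 10.81 in Cugbp1 shRNA arrays. No knockdown array reached the lowest control array, and the gap was smallest in replicate 1, where the values differed by -0.21, against -0.61 and -0.68 in replicates 2 and 3. The difference of -0.50 (standard error 0.12) did not pass in limma (adjusted p = 0.0736) and passed with the replicate block (adjusted p = 0.0178).

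Cyp51, the lanosterol demethylase, was at 11.47, 11.49 and 11.59 against 11.28, 11.18 and 11.30. Its groups were separate with an SD of 0.06 in each (n = 3), and the difference was -0.26 (adjusted p = 0.160, and 0.0264 with the block). Tm7sf2, a sterol reductase that acts just after Cyp51, was at 10.28, 9.72 and 10.07 against 9.98, 9.49 and 9.68. Its groups overlapped, since replicate 2 was low and replicate 1 high in both. The difference was -0.31, and passed only with the block (adjusted p = 0.427, and 0.0181 with the block). It was -0.14 without Cugbp1 shRNA replicate 2 and -0.18 without control replicate 1. Without Cugbp1 shRNA replicate 2 the difference of Cyp51 was -0.17.

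Removal of the methyl groups at carbon 4 takes Sc4mol (now Msmo1), Nsdhl and Hsd17b7 in turn, and Nsdhl had the lowest value of difference among them. Sc4mol, the methyl oxidase, was at 11.52, 11.53 and 11.61 in control and 11.31, 11.10 and 11.21 in Cugbp1 shRNA arrays. Control arrays lay within 0.09 of each other and above all knockdown arrays, and the difference was -0.35 (adjusted p = 0.0943, and 0.0172 with the block).

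Nsdhl was at 12.27, 12.16 and 12.41 in control and 11.65, 11.24 and 11.49 in Cugbp1 shRNA arrays. The highest knockdown array stood well below the lowest control array. Nsdhl fell by 0.82 on the log2 scale (standard error 0.13, limma adjusted p = 0.0243), to 56.6% of control (95% confidence interval 46.0% to 69.7%). The fall was by 0.62 in replicate 1 and by 0.92 in each of replicates 2 and 3. Without single arrays the difference ran from -0.90 to -0.69 and the adjusted p from 0.0622 to 0.170, so the call was lost without any 1 of the 6 arrays.

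Hsd17b7, the sterol ketone reductase, was at 10.98, 11.14 and 11.37 against 10.75, 10.63 and 10.77. All knockdown arrays lay below all control arrays, and replicate 1 had the smallest gap, -0.23 against -0.50 and -0.60. The difference of -0.44 did not pass in limma (adjusted p = 0.0898) and passed with the replicate block (adjusted p = 0.0153).

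Ebp, the sterol isomerase, was the late enzyme nearest to control. It was at 9.10, 8.82 and 9.43 in control and between 8.87 and 9.08 in Cugbp1 shRNA arrays, a difference of -0.14 that rested on replicate 3 (-0.02, 0.05 and -0.43 by replicate; adjusted p = 0.763). Sc5d, the desaturase that follows, was at 11.84, 11.65 and 11.89 against 11.69, 11.42 and 11.57. It was lower in every replicate, at -0.23 (adjusted p = 0.331, and 0.0430 with the block), although the groups overlapped, and -0.15 without Cugbp1 shRNA replicate 2.

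Dhcr7 had the largest difference of the 34 members in the main fit. It was at 11.21, 11.12 and 11.45 in control and 10.25, 10.04 and 10.24 in Cugbp1 shRNA arrays. Every knockdown array was below every control array by a margin wider than the range within either group. Dhcr7 fell by 1.09 on the log2 scale (standard error 0.12, limma adjusted p = 0.0159, and 0.00168 with the replicate block). Expressed as a share of control it was at 47.1% (95% confidence interval 38.9% to 57.0%). By replicate number the differences were -0.97, -1.09 and -1.20. Without single arrays it stayed between -1.18 and -0.99, passed without control replicate 1 (adjusted p = 0.0393) and did not pass without any of the other 5 arrays (adjusted p = 0.0638 to 0.139). Without control replicate 2, control replicate 3, Cugbp1 shRNA replicate 2 or Cugbp1 shRNA replicate 3, limma called 0 of all genes, and without Cugbp1 shRNA replicate 1 it called 1.

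**Figure D2:**
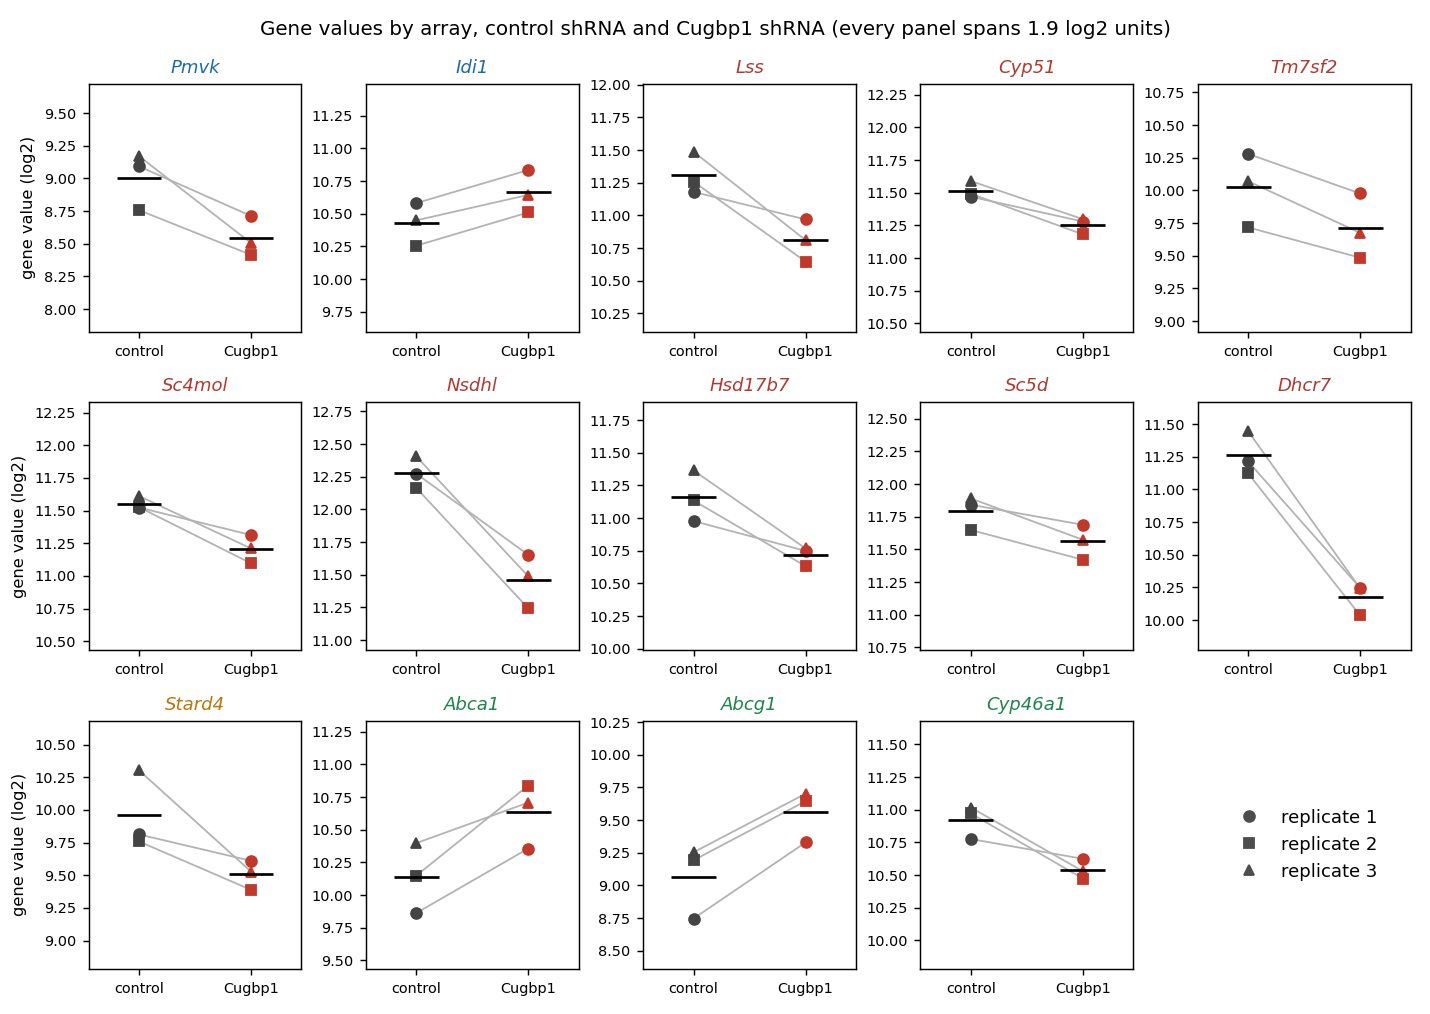
Gene values (log2) on every array for the 14 members that passed with or without the replicate block, control on the left and Cugbp1 shRNA on the right of each panel. Grey lines join arrays of the same replicate number, black bars are group means, and every panel spans the same log2 range. The lines run down in 11 panels, most steeply for Dhcr7 and Nsdhl, and up for Idi1, Abca1 and Abcg1.

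Promoter letters of the lowered sterol genes are shown because their differences ran together while Hmgcs1, a gene of the same SREBP programme, differed by only -0.11. They are the 250 bases before the RefSeq start in assembly GRCm38.p6, 5′ to 3′ along the gene. Of the 35 genes, 28 had at least 1 such window. Both strands were searched for a sterol regulatory element written TCACNCCAC, the NF-Y box CCAAT, which reads ATTGG on the other strand, the E-box CACGTG and the LXR repeat, which is AGGTCA written 2 times with any 4 bases between, and matches are in capitals.
Dhcr7 chr7:143829964-143830213 (plus strand): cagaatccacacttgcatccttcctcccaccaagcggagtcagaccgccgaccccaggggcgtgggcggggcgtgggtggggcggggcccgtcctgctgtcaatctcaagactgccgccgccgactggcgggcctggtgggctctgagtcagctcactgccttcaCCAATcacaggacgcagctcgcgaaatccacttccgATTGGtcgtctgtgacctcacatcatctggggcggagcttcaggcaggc
Nsdhl chrX:72918271-72918520 (plus strand): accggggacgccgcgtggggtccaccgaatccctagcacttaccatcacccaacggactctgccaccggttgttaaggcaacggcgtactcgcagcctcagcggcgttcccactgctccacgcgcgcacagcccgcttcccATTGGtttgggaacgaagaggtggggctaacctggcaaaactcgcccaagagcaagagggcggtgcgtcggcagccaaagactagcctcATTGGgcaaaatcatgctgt
Lss chr10:76531355-76531604 (plus strand): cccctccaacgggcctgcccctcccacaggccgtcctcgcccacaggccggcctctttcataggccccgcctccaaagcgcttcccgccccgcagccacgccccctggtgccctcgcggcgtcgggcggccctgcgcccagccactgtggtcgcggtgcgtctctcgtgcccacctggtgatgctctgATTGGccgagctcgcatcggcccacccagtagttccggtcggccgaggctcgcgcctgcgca
Hsd17b7 chr1:169969206-169969455 (minus strand): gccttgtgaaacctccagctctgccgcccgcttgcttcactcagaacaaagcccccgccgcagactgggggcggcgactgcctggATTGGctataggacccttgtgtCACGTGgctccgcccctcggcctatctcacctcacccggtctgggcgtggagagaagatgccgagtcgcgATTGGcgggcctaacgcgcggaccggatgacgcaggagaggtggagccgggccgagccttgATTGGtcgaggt
Hmgcs1 chr13:119690101-119690350 (plus strand): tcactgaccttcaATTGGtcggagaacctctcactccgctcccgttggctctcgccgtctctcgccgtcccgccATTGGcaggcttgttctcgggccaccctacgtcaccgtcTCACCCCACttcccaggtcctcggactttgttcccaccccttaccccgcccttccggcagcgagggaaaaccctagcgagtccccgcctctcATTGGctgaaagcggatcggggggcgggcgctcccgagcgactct

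The NF-Y box was found in 22 of the 28 members with a window. By role these were 9 of 9 sterol arm genes, 5 of 6 mevalonate genes and 4 of 5 SREBP control genes. In the other roles it was found in 2 of 3 uptake and transport genes and 2 of 5 export and LXR genes. The mevalonate gene without a box was Acat2, which has no value here. Fdps, Fdft1 and Sqle had no window. Over the table, 10133 of 27025 genes held it, 37.5%. Dhcr7 held 2 boxes in the window shown and none in the windows of its other 2 listed starts, Nsdhl 2, Lss 1, and Hsd17b7 3. The Dhcr7 window shown was chosen because it held a box. Hmgcs1, at a difference of -0.11 with groups that did not overlap, held 3 as well. Mvk, at -0.17, held 5 and Mylip, at 0.26, held 3, and neither passed in either fit. Whether the count of boxes goes with the differences was not tested. The sterol element in this spelling was found in 1 of 28 members, Hmgcs1, and in 1.22% of all genes. The E-box was found in 6 of 28 members, Dhcr7 (at another start) and Hsd17b7 among them, and in 6.86% of all genes. The LXR repeat was found in 0 of 28 members and in 4 of 27025 genes. In the member windows no matches of different motifs overlapped. A gene with several listed starts has more windows in which to hold a match, and a match describes the letters only.

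The 5 SREBP control members stayed near control. Of these 5, 0 passed in limma, with or without the block, and 0 had an unadjusted p under 0.05. Their differences ran from -0.15 to 0.14. Srebf2, the SREBP of sterol synthesis, was at 11.57, 11.86 and 11.94 in control and 11.63, 11.84 and 11.91 in Cugbp1 shRNA arrays. Replicate 1 was low in both groups, and the confidence interval of the difference ran from -0.30 to 0.30 (adjusted p = 1.00).

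Insig1, itself induced by SREBP, was at 11.86, 11.45 and 11.87 in control and 11.97, 11.60 and 11.87 in Cugbp1 shRNA arrays. Replicate 2 was the low array of each group, and the difference was 0.09 with a confidence interval of -0.27 to 0.44 (adjusted p = 0.867). Insig2, its relative, was at 0.14, Scap at -0.07 and Srebf1, the SREBP of fatty acid synthesis, at -0.15. Scap had close to the same difference in each replicate, -0.07, -0.07 and -0.06. Other SREBP control genes, from the list of pathway genes described below, did not all stay near control. Mbtps2 was at -0.26 with separate groups (adjusted p = 0.161, and 0.0254 with the block). Rnf139 was at -0.25 (adjusted p = 0.290, and 0.0473 with the block). Mbtps1 at 0.19 and Aup1 at 0.14 went the other way and passed in neither fit.

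Among uptake and transport genes, Stard4, a cytosolic sterol carrier and SREBP target, went with the lowered enzymes. It was at 9.81, 9.76 and 10.30 in control and 9.61, 9.39 and 9.53 in Cugbp1 shRNA arrays. Both ranges were separate, and control replicate 3 stood above the other control arrays. The difference was -0.45 (adjusted p = 0.173, and 0.0343 with the block), and -0.31 without control replicate 3, the smallest value without any single array.

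Mylip, the ubiquitin ligase that degrades the LDL receptor family, was at 9.59, 9.43 and 9.32 in control and 9.69, 9.76 and 9.69 in Cugbp1 shRNA arrays. All 3 knockdown arrays were above all control arrays. The difference was 0.26 with a confidence interval of 0.03 to 0.50, which did not pass (adjusted p = 0.213, and 0.0507 with the block). Npc1 and Npc2, which move cholesterol out of lysosomes, were at 0.13 and 0.11, and the endocytic receptor Lrp1 at 0.00 with an interval of -0.27 to 0.27. Of these, Npc1 had groups that did not overlap, and none passed in either fit.

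The exporters Abca1 and Abcg1 had higher values. Abca1, which loads cholesterol onto apolipoproteins, was at 9.86, 10.15 and 10.40 in control and 10.36, 10.84 and 10.71 in Cugbp1 shRNA arrays. The groups overlapped, because control replicate 3 was slightly above Cugbp1 shRNA replicate 1, and each knockdown array was above the control array of its number. Abca1 was at 0.50 without the block (standard error 0.17, adjusted p = 0.173) and rose with it (adjusted p = 0.0104), to 141% of control.

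Abcg1, its partner in loading lipoproteins, was at 8.75, 9.19 and 9.25 in control and 9.33, 9.64 and 9.70 in Cugbp1 shRNA arrays. Here the groups were separate, and replicate 1 was low in both. By replicate the differences were 0.58, 0.45 and 0.45, with a mean of 0.49 (adjusted p = 0.157, and 0.00467 with the block). Its brightest probe set alone gave 0.06, with values between 12.72 and 13.03 on all arrays. The neuronal relative Abcg4 was at 0.00 with an interval of -0.25 to 0.26.

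The LXR receptors themselves, Nr1h2 and Nr1h3, were at 0.16 (adjusted p = 0.452, and 0.0887 with the block) and -0.03 (adjusted p = 0.944). Nr1h2 was higher in each replicate, by 0.20, 0.17 and 0.13. Cyp46a1, the neuronal hydroxylase by which the brain sheds cholesterol, was at 10.78, 10.97 and 11.02 in control and 10.62, 10.47 and 10.53 in Cugbp1 shRNA arrays. Knockdown arrays were all below control arrays, and replicate 1 had the smallest gap, -0.15 against -0.50 and -0.49. The difference was -0.38 (adjusted p = 0.0907, and 0.0258 with the block). Soat1, which esterifies cholesterol for storage, was at -0.15 and did not pass.

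**Figure D3:**
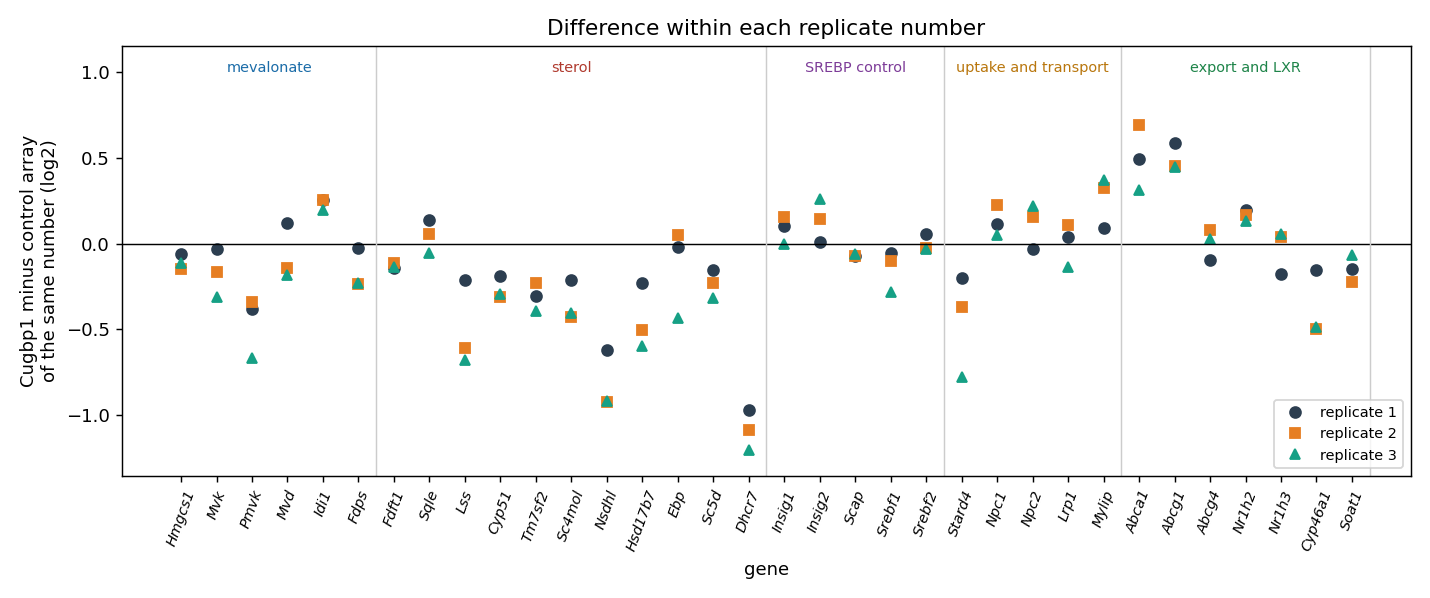
Log2 difference between the Cugbp1 shRNA and the control array of the same replicate number, for each of the 34 genes grouped by role. Circles, squares and triangles are replicates 1, 2 and 3. All 3 symbols lie below 0 for 9 of the 11 sterol arm genes. All 3 lie above 0 for 7 of the 34 genes, Idi1, Insig2, Npc1, Mylip, Abca1, Abcg1 and Nr1h2.

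Direction held across replicate numbers in most members. In 18 of the 34 the difference was below 0 in all 3 replicates and in 7 it was above 0 in all 3, against 5208 and 4261 of all 16524 genes. Sterol arm medians were -0.21, -0.31 and -0.40 in replicates 1, 2 and 3. Celf1 itself differed by -1.26, -1.42 and -1.43. Within each group the sterol arm was lowest in replicate 2, with median deviations from the group mean of -0.08 in control and -0.11 in knockdown arrays.

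The separate probe sets of each gene, which interrogate different parts of its transcript, show how even the differences were. Of 785 probe sets listed for the members 769 were kept, 9 to 93 a gene. A lower mean in knockdown arrays was seen in 424 of them, or 55.1%, against 48.8% of all kept probe sets. Of all 597778 kept probe sets only 249557 were annotated to a single gene, as every member probe set was. The shares of all kept probe sets in this paragraph therefore come from an unlike background. Shares among annotated probe sets alone were not computed. Adjusted over all 597778 kept probe sets, 0 of the 769 passed in limma, with or without the block (smallest adjusted p = 0.417), as did 0% of all kept probe sets. At an unadjusted p under 0.05, 77 of the 769 were lower (10.0%, against 3.58% of all kept probe sets) and 37 higher (4.81%, against 2.34%). Knockdown was lower without overlap of the groups for 137 of the 769, 17.8%, against 6.57% of all kept probe sets. In the sterol arm this held for 82 of 160, 51.2%. It was higher without overlap for 60 of the 769, 7.80%, against 5.44% of all kept probe sets.

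All 15 Dhcr7 probe sets and all 11 Nsdhl probe sets were below control without overlap of the groups. Dhcr7 differences ran from -1.36 to -0.48 and Nsdhl differences from -1.63 to -0.73. Lss had 25 of 25 probe sets with a lower mean, 23 of them without overlap, and Hsd17b7 15 of 15, 11 of them without overlap. Every kept probe set had a lower mean in 8 members, these 4 and Tm7sf2, Sc5d, Stard4 and Cyp46a1. Abca1 was the reverse case, with 0 of 78 probe sets lower and 29 above control without overlap. Abcg1 had 0 of 24 and Mylip 0 of 11 with a lower mean. Srebf2 was mixed, with 39 of 82 lower. Probe sets of a gene share that gene and are not replicates.

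**Figure D4:**
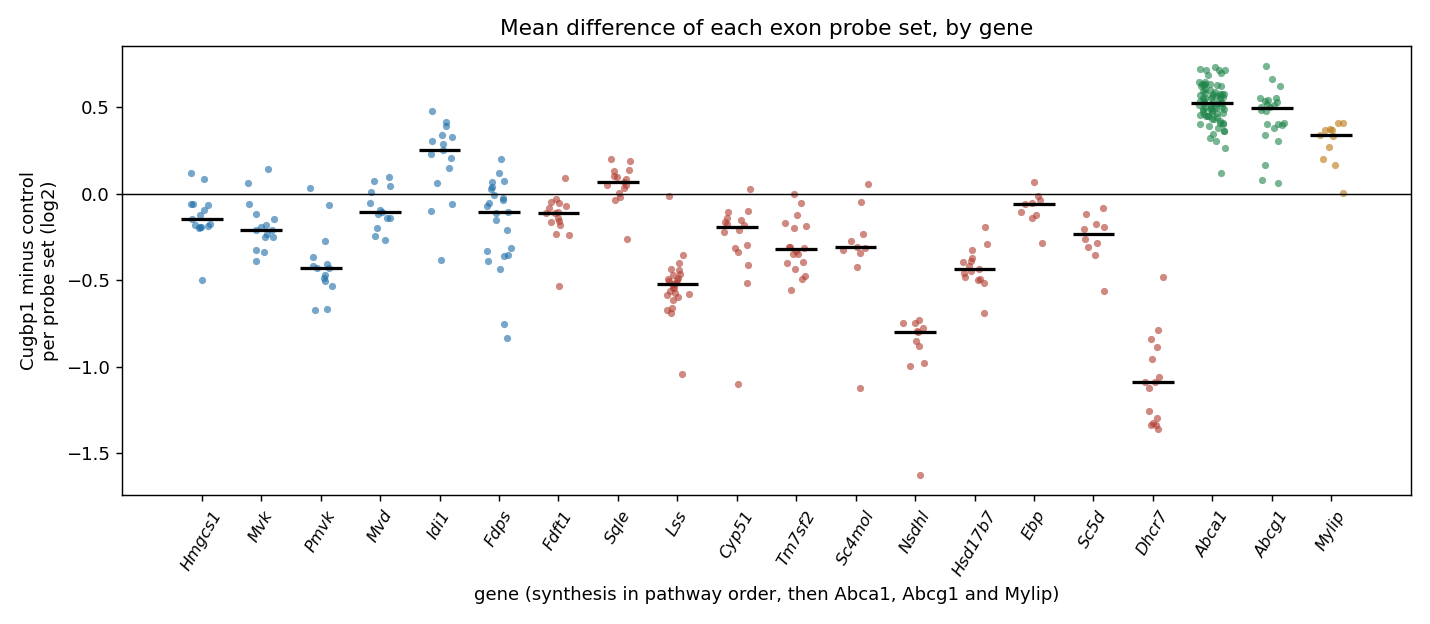
Difference of the group means (log2) for each kept exon probe set, 1 point a probe set, for the 17 measured synthesis genes in pathway order and for Abca1, Abcg1 and Mylip. Black bars are medians over the probe sets of a gene. All points of Dhcr7, Nsdhl, Lss, Hsd17b7, Tm7sf2 and Sc5d lie below 0, and all points of Abca1, Abcg1 and Mylip above it.

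Relative exon usage, the difference of a probe set against the rest of its gene, was compared because Celf1 acts in splicing. By diffSplice 1 of the 769 member probe sets passed as relatively lower and 0 as relatively higher, where 0.0380% and 0.0442% of all probe sets tested were called. At an unadjusted p under 0.05, 13 were relatively lower (1.69%, against 1.59% of all probe sets tested) and 4 relatively higher (0.520%, against 1.48%). It was probe set 4911070 of Cyp51, at 8.98, 9.86 and 9.65 in control and 8.55, 8.50 and 8.14 in Cugbp1 shRNA arrays. The groups were separate, and the gap was smallest in replicate 1. Relative to the rest of Cyp51 it was at -0.88 (adjusted p = 0.00328), while the gene value differed by only -0.26. Leaving out either control replicate 2 or Cugbp1 shRNA replicate 3 lost this call.

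With the replicate block 15 member probe sets were relatively lower and 1 relatively higher, in 14 genes together. The 15 make 1.95% of the members' probe sets, against 1.18% of all probe sets tested, and 1.19% of all were called relatively higher. The probe set that was relatively higher, 4457331 of Dhcr7, still had a lower mean, at -0.48 against -1.09 for the gene. Probe set 4930955 of Nsdhl was at -1.63, or -0.79 relative to its gene (adjusted p = 0.103, and 0.00170 with the block). Where these probe sets lie within their genes was not analysed here.

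Other genes of sterol and SREBP biology, from a list of 44 that are not members, are given for comparison. Of these 36 were tested, 25 had a lower mean, 3 fell and 0 rose in limma, with 13 that fell and 3 that rose with the block. The shares of all genes called are those given above for the members. The 3 that fell serve the synthesis and desaturation of fatty acids, which SREBP also controls. Scd2, a stearoyl-CoA desaturase abundant in brain, fell by 0.65 (adjusted p = 0.0288), from 13.68, 13.61 and 13.59 in control to 13.18, 12.86 and 12.89 in Cugbp1 shRNA arrays. Its relative Scd1 fell by 0.52 (adjusted p = 0.0322) and Me1, the cytosolic malic enzyme that supplies NADPH, by 0.53 (adjusted p = 0.0414). None of these 3 had overlapping groups. The 3 that rose with the block alone, named after their values were seen, had separate groups too. Acaca, the acetyl-CoA carboxylase that commits acetyl units to fatty acids and is itself under SREBP control, was at 0.32 (adjusted p = 0.112, and 0.0299 with the block), opposite to Scd1, Scd2 and Me1. Scarb1, a lipoprotein receptor, was at 0.39 (adjusted p = 0.0770, and 0.0116 with the block) and Rxrb, a partner receptor of LXR, at 0.24 (adjusted p = 0.269, and 0.0314 with the block). Among those that fell with the block alone, Fasn was at -0.31 (adjusted p = 0.173, and 0.0496 with the block), opposite to Acaca. So were Fads1 at -0.24 (adjusted p = 0.185, and 0.0405 with the block) and Acss2 at -0.35 (adjusted p = 0.274, and 0.0415 with the block). Groups were separate in each, and these genes too were picked after their values were seen. Ncoa6 was at -0.38 (adjusted p = 0.0767, and 0.0118 with the block), opposite to Rxrb. Abca7 was at -0.34 (adjusted p = 0.183, and 0.0162 with the block), opposite to Abca1 and Abcg1. Both had separate groups. Acat1 at -0.25, Ggps1 at -0.29 and Tmem97 at -0.36 also fell with the block alone (adjusted p = 0.0287, 0.0195 and 0.013). So did Mbtps2 and Rnf139, given above. The list's median was -0.11, against -0.02 for all genes.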

How the data were processed

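Total RNA of 6 samples, 100 ng each, was hybridised to exon arrays, 3 per group. The deposited values are log2 RMA values, 1 per exon probe set, made by the authors with Affymetrix Expression Console, as stated per the labels of replicate 1 and per the submitters' processing notes for every array. The notes name build mm9. RMA removes differences in total signal between arrays. Its version is not given in the sources used here, nor is it stated which arrays shared a normalization. The number of arrays limits the precision.

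There were 1195555 probe sets, and the platform's annotation gave 1 gene symbol to 316997 of them and several to 6571. Of 22264 symbols, 17988 were current in RefSeq GRCm38.p6, 4213 were updated through synonyms and 63 kept, which left 22071 genes. Members were taken by the symbol alone. Probe sets with a mean of at least the median of all, 5.73, were kept. Tukey median polish gave each gene with 3 or more of them a value for every array. The 5 genes whose polish did not converge in 50 iterations hold no member.

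Cugbp1 shRNA minus control was tested in R 4.3.3 by lmFit and eBayes of limma 3.58.1 (two-sided, Benjamini-Hochberg over all 16524 genes, adjusted p under 0.05). Exon usage was tested with diffSplice on 244606 probe sets. Code was tested on simulated data. There the limma fit without the block recovered 59 of 100 genes with a true log2 change of 1. Of 100 genes with a true change about the size of the Abca1 difference, 0.50, it recovered 2. A gene that did not pass can therefore still differ by that much. Tables were handled with pandas 2.3.3 and numpy 2.4.6 (Python 3.11.15) and version 1.17.8 of data.table, and plots drawn with matplotlib 3.10.9.

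Replicates 2 and 3 carry numbers in their titles, and the unnumbered array of each group was taken as replicate 1. Across genes, arrays that share a number deviated together from their group means (r = 0.76, 0.50 and 0.71). Genes are not independent. Only the fits with the replicate block treat the numbers as pairs. The main limma fit, with its confidence intervals, and the main diffSplice fit hold no term for them. The alternatives were the replicate block, a block for the form of the treatment text, quantile normalization, median centring, other filters and gene summaries, array weights, variances with trend and robust options, a threshold of 0.10 and leaving out each array. Replicates 2 and 3 alone were added after seeing the data.

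All 35 members were to be named, with up to 4 called genes of the list of other pathway genes. The members, lists and motifs were chosen with earlier results of these data known.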

Additional observations from a re-analysis of the deposited data

How the results depend on the processing

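Of the 34 members, 25 kept the sign of their difference in all 18 other settings and 9 changed it at least once. Members called lower, 2 in the main fit, numbered 11 with the replicate block, 9 with array weights, 7 with a block for the treatment text, 6 with trend and robust variances or an adjusted p under 0.10, 4 with the 75th percentile filter or replicates 2 and 3 alone (added after seeing the data), 0 with 1 probe set per gene and 0 to 1 without single arrays. Members called higher, 0 in the main fit, numbered 4 with array weights, 3 with the replicate block and 2 with the treatment text block. Among the other pathway genes, 3 called lower became 13 with the replicate block or array weights, 7 with the treatment text block, 5 with trend and robust variances, 0 with 1 probe set per gene and 0 to 1 without single arrays. Those called higher went from 0 to 4 with array weights, 3 with the replicate block, 2 with the treatment text block and 1 with trend and robust variances, an adjusted p under 0.10 or the 75th percentile filter. Relatively lower exon probe sets went from 1 to 15, and relatively higher ones from 0 to 1, with the replicate block. Without single arrays there were 0 to 2 relatively lower. The replicate block changed the call of 12 members, given beside their values, and of no other member.

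Celf1 was at -0.90 (adjusted p = 0.0911) with 1 probe set per gene and at -1.43 to -1.28 without single arrays. Dhcr7 and Nsdhl also lost their calls with 1 probe set per gene (adjusted p = 0.0689 and 0.0838). Signs turned only for members with a main difference from -0.14 (Ebp) to 0.14 (Insig2), though others in that range, such as Hmgcs1, kept theirs. Srebf2 was at 0.0047 with quantile normalization or means, 0.00066 with median centring, 0.0060 with no filter, 0.0033 with the 75th percentile filter, 0.0043 with 1 probe set per gene and -0.10 to 0.062 without single arrays. With no filter Abcg4 was at -0.0057, and with means at -0.016, where Nr1h3 was at 0.0091. With 1 probe set per gene Sqle was at -0.019 and Insig2 at -0.020. With array weights Ebp was at 0.022 and Nr1h3 at 0.034, and in replicates 2 and 3 alone Nr1h3 was at 0.10 and Lrp1 at -0.022. Without single arrays Lrp1 ran from -0.072 to 0.075, Insig1 from -0.062 to 0.18, Abcg4 from -0.064 to 0.076, Nr1h3 from -0.054 to 0.052, Mvd from -0.20 to 0.0086 and Ebp from -0.24 to 0.030. The cause of these changes was not tested.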
